A study of Mus musculus with 24 samples.

Results

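The eotaxins are CC chemokines that draw eosinophils out of the blood, and this report describes the transcripts of both eotaxins measured here, Ccl11 (eotaxin-1) and Ccl24 (eotaxin-2), and of their receptor Ccr3 in mouse lung. The members are the 3 genes by name, with every array probe set that the platform annotation gives to one of them alone, low signals included. This gave 3 of the 45037 probe sets tested, 1 for each gene. Total RNA of lung tissue was measured on a pair of Affymetrix arrays for each of 12 samples. The groups were IL-13 KO mice treated with HDM, IL-13 KO mice treated with PBS, wild-type mice treated with HDM and wild-type mice treated with PBS, with 3 samples in each. HDM commonly stands for house dust mite, a source of allergens, and PBS for phosphate-buffered saline, the vehicle. Dose, route, schedule, strain background, age, sex and the make of the IL-13 deletion are not given in the sources used here, and whether each sample is a different animal is not stated either. The p-values therefore cover the variation among these 12 samples, part of which may be technical.

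Eosinophils carry the receptor CCR3 at high density, and mast cells, basophils and some T helper type 2 cells carry it as well. Binding of an eotaxin to CCR3 starts migration towards the source of the chemokine. In the lung Ccl11 is known from airway epithelium, fibroblasts, smooth muscle and endothelium, and Ccl24 mainly from macrophages and epithelium. IL-13 and IL-4, acting through IL-4 receptor alpha and the transcription factor STAT6, are known inducers of eotaxins. The comparisons ask how HDM changes these transcripts and whether that change differs in mice without IL-13.

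By RefSeq on GRCm38.p6, Ccl11 is at chr11:82057832-82062955 in a cluster of chemokine genes. Ccl24 is at chr5:135569935-135573123 and Ccr3 at chr9:124017825-124031692, beside other chemokine receptors. Of the 3 members, Ccr3 had an entry in the RefSeq promoter table (build GRCm38.p6), which gives 250 bases before and 50 bases after the start. Of the neighbours of Ccl11, Ccl12, Ccl8 and Ccl1 had one, and they are shown because their transcripts are set against that of Ccl11 further on. Capitals mark GGG and CC with 5 bases of any kind between them, read on either strand, the kind of sequence that NF-kB binds. The Ccr3 window lies inside the gene interval given above, so its start is not the first base of that interval. The windows are chr9:124021721-124022020 for Ccr3, chr11:82101595-82101894 for Ccl12 and chr11:82114935-82115234 for Ccl8, all on the plus strand, and chr11:82179763-82180062 on the minus strand for Ccl1.
Ccr3: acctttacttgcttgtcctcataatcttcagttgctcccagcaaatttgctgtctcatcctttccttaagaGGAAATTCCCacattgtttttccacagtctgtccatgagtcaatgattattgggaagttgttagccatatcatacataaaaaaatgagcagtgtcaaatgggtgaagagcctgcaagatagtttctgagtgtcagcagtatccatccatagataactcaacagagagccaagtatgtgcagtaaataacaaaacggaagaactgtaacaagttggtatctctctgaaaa
Ccl12: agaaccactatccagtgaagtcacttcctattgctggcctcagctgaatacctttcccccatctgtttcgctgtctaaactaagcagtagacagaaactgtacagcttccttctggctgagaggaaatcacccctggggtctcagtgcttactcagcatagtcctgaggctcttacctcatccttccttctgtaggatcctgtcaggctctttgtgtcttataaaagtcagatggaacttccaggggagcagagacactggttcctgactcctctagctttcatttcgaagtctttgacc
Ccl8: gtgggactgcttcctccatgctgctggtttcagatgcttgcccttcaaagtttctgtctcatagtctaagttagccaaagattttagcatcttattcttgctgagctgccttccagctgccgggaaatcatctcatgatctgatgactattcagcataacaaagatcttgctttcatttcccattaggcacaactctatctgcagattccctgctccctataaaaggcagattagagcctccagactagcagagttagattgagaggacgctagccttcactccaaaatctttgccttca
Ccl1: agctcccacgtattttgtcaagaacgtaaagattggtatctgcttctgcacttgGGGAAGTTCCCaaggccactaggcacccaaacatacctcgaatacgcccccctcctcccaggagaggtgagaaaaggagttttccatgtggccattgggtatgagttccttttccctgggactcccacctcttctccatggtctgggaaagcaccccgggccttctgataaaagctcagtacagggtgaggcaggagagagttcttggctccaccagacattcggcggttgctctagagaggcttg

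The Ccr3 window held this pattern once, on the reverse strand, starting 179 bases before the start, and the Ccl1 window held it at a pair of overlapping places, once on each strand. The windows of Ccl12 and Ccl8 did not hold it. It occurs in 50.8% of the 32817 promoters of the table. TTC and GAA with 4 bases between them, the spacing that STAT6 prefers, and the same with 3 bases between them, searched on both strands, were in none of these 4 windows. Of all promoters 6.94% hold the wider spacing and 8.29% the narrower.

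The deposited values are array signals on a linear scale, scaled by the authors to a common mean on each array. Precision is limited by having 3 samples in a group. Il13 itself, the deleted gene, had very low signal, from 8.71 to 15.5 in KO HDM, 3.3 to 9.45 in KO PBS, 15.5 to 29.9 in wild-type HDM and 4.65 to 12.1 in wild-type PBS samples. Whether this probe set lies in the deleted part is not known, and it was not used to check the labels. The secretoglobin Scgb1a1, a defining transcript of airway club cells, had mean signals of 5459 in KO HDM, 5401 in KO PBS, 5188 in wild-type HDM and 5546 in wild-type PBS samples, so a lung marker was high in every group. Skeletal muscle transcripts set wild-type HDM replicates 1 and 2 and wild-type PBS replicate 2 apart: the summed signal of 9 muscle genes was 1734, 6164 and 3004 in them and from 260 to 542 in the other 9 samples. As a sign of RNA quality, the signal of the 5' actin probe set relative to the 3' one was 0.464 to 0.656 in KO HDM and 0.748 to 0.854 in KO PBS samples, without overlap. It was 0.695 to 0.832 in wild-type HDM samples, also above KO HDM without overlap, and 0.409 to 0.898 in wild-type PBS samples. That of Gapdh overlapped between all groups, with 1.04 to 1.16 in KO HDM, 1.04 to 1.20 in KO PBS, 1.09 to 1.16 in wild-type HDM and 1.04 to 1.24 in wild-type PBS samples. The part of RNA quality in the HDM effect in KO, in the interaction and in KO against wild type after HDM was not tested. Each member was tested with limma on log2(signal + 7), where 7 is the 10th percentile of all signals of this array. p-values were adjusted by Benjamini-Hochberg over all 45037 probe sets, and a result was called under 0.05.

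Ccl11 rose after HDM in wild-type lung and had no called change after HDM in lung of IL-13 KO mice. In KO HDM samples its signal was 22.9, 27.8 and 6.47, against 23.5, 25.3 and 17.3 in KO PBS samples. In wild-type HDM samples it was 333, 420 and 453, against 25.3, 19.4 and 23.98 in wild-type PBS samples. Every wild-type HDM sample was thus more than 10 times as high as any sample of the other 3 groups, and those 3 groups overlapped one another.

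The HDM effect on Ccl11 in KO was -0.26 ± 0.33 (log2 ± SE, 95% interval -0.96 to 0.45; adjusted p = 0.74). In wild type it was 3.77 ± 0.33 (adjusted p = 4.38e-05), with means of 402 ± 61.9 in HDM and 22.9 ± 3.09 in PBS samples (SD, n = 3 each), a ratio of 17.6. In that comparison 2.49% of probe sets were called higher, and 9.9% were higher without overlap of the groups. The log2 value understates the ratio because of the added constant. Among all probe sets Ccl11 had the 20th largest change in wild type. In RNA of a whole tissue piece, fewer cells of a type and less RNA per cell cannot be told apart.

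The difference of HDM effects between genotypes, KO minus wild type, was -4.02 ± 0.46 for Ccl11 (95% interval -5.03 to -3.02; adjusted p = 0.00773). Calls were rare in this comparison, at 0.0444% of probe sets lower in KO, and this difference was the third in size among all probe sets and the 8th by p. Within HDM-treated lung, Ccl11 was lower in KO than in wild type by a log2 difference of -4.07 ± 0.33 (adjusted p = 0.000151), where 0.242% of probe sets were called lower. After PBS, the means were 22.0 ± 4.2 in KO and 22.9 ± 3.09 in wild type (-0.05 ± 0.33, 95% interval -0.76 to 0.66; adjusted p = 0.99), a comparison in which 0.0289% of probe sets were called. The interaction was not called without the 3 samples with skeletal muscle signal, a subset with a single wild-type HDM sample, assumed to vary like the other groups (-4.12 ± 0.65; adjusted p = 0.22). That remaining sample, replicate 3, had the highest Ccl11 signal of all.

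Ccl24 rose after HDM in both genotypes, with the higher signal in wild type. KO HDM samples had 99.7, 59.9 and 51.8, against 12.2, 18.5 and 28.3 in KO PBS samples. Wild-type HDM samples had 205, 179 and 264, against 8.01, 15.6 and 24.1 in wild-type PBS samples. The HDM groups did not overlap their PBS groups, nor each other, and the KO HDM samples lay between the PBS samples and the wild-type HDM samples. Of all probe sets, 13.3% were higher after HDM in KO without overlap of the groups, and 9.9% in wild type. A further 7.03% share was lower in KO than in wild type after HDM without overlap.

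In KO the HDM effect on Ccl24 was 1.53 ± 0.34 (95% interval 0.79 to 2.27; adjusted p = 0.021), a ratio of means of 3.58, in a comparison where 2.83% of probe sets were called higher. In wild type it was 3.33 ± 0.34 (adjusted p = 0.000139), a ratio of means of 13.6. The call in KO was lost without KO HDM replicate 1 (adjusted p = 0.084) or 2 (0.052), without KO PBS replicate 1 (0.085) or 2 (0.059), and when the 3 samples that carried muscle transcripts were left out (0.051). The effect stayed between 1.28 and 1.76 when single samples were left out.

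The difference of HDM effects on Ccl24, KO minus wild type, was -1.80 ± 0.48 (95% interval -2.84 to -0.75). It was not called (adjusted p = 0.58, unadjusted p = 0.00275). KO against wild type after HDM gave -1.56 ± 0.34, with means of 70.5 ± 25.7 in KO and 216 ± 43.3 in wild type (SD, n = 3 each; adjusted p = 0.11). This second comparison was called with a larger added constant of 32 (-1.29; adjusted p = 0.027) and when the array that carries the gene was fitted alone (0.035). After PBS the means were 19.7 ± 8.11 in KO and 15.9 ± 8.06 in wild type (0.24 ± 0.34; adjusted p = 0.94).

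**Figure D1:**
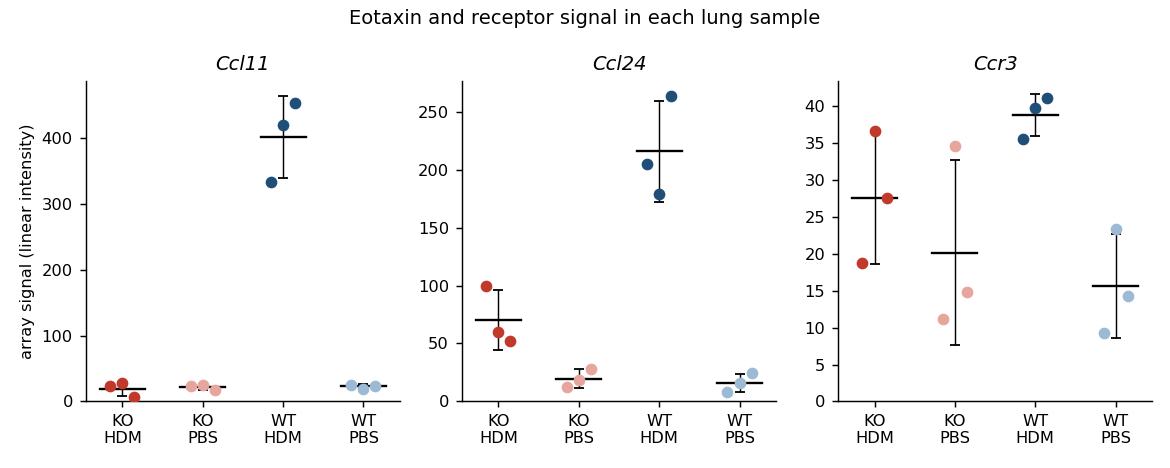
Array signal of Ccl11, Ccl24 and Ccr3 in each lung sample (points, linear intensity, 3 per group), with the group mean (long bar) and SD (error bar). Ccl11 is high in the wild-type HDM samples (333 to 453) and at most 27.8 elsewhere, Ccl24 is intermediate in KO HDM samples (51.8 to 99.7), and Ccr3 signals are low in every group.

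To set the eotaxins against each other within a sample, the log2 signal of Ccl24 was taken from that of Ccl11. This measure was chosen after the values were seen. Its change after HDM is the HDM effect on Ccl11 minus that on Ccl24, both given above, so it adds no separate evidence. Probe sets differ in brightness, so differences of this quantity between samples have a meaning and its level does not. It was -1.63 ± 0.62 in KO HDM and 0.16 ± 0.62 in KO PBS samples (SD, n = 3 each), without overlap. The difference of -1.79 had p = 0.1 in a two-sided exact permutation test, the smallest that 3 samples against 3 allow. In wild type it was 0.88 ± 0.28 after HDM and 0.44 ± 0.59 after PBS (exact permutation p = 0.3). All 3 KO HDM samples lay below all 3 KO PBS samples.

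Ccr3, the receptor, had low signals throughout. KO HDM samples had 18.7, 36.6 and 27.6, against 11.2, 34.6 and 14.8 in KO PBS samples. Wild-type HDM samples had 35.7, 39.8 and 41.2, against 9.29, 23.3 and 14.3 in wild-type PBS samples. The wild-type HDM samples did not overlap the wild-type PBS samples. Of all probe sets, 9.9% were higher after HDM in wild type without overlap of the groups. The KO groups overlapped each other, and KO HDM replicate 2 lay within the range of the wild-type HDM samples.

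None of the 5 comparisons called Ccr3. Its HDM effect was 0.41 ± 0.34 in KO (95% interval -0.33 to 1.15; adjusted p = 0.58) and 1.06 ± 0.34 in wild type (0.32 to 1.80; adjusted p = 0.11, unadjusted p = 0.00857). The difference of these effects, KO minus wild type, was -0.65 ± 0.48 (-1.70 to 0.39; adjusted p = 0.95). KO against wild type gave -0.44 ± 0.34 after HDM (adjusted p = 0.84) and 0.22 ± 0.34 after PBS (0.95). These intervals are wide, and an HDM effect lower by 1 log2 unit in KO than in wild type lies within that for the difference of effects. Ccr3 had a mean signal of 25.6 over all samples and lay under a filter at the 30th percentile of probe-set means, which was 33.9. Ccl11 passed that filter through the wild-type HDM group, its other 3 means being below it, and Ccl24 through both HDM groups.

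**Figure D2:**
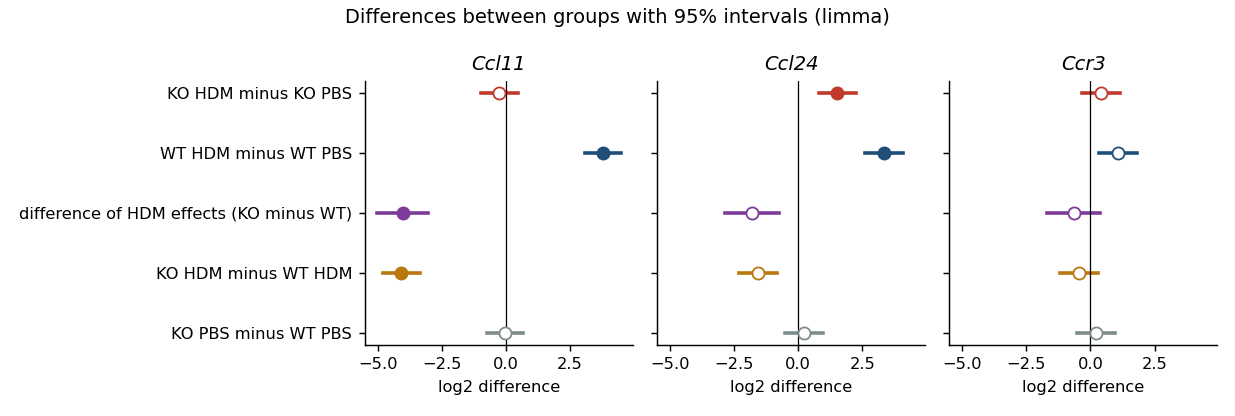
Differences between groups for Ccl11, Ccl24 and Ccr3 (x axis, log2 scale) with 95% intervals from limma, one row per comparison. Filled points had an adjusted p under 0.05 over all 45037 probe sets and open points did not. Ccl11 has an effect in wild type (3.77) and none called in KO (-0.26), while Ccl24 has called effects in both (1.53 in KO and 3.33 in wild type).

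In the order of group means, Ccl11 ran from 19.1 ± 11.2 in KO HDM through 22.0 in KO PBS and 22.9 in wild-type PBS to 402 in wild-type HDM samples, and the lowest 3 did not differ beyond their spread. Ccl24 ran from 15.9 in wild-type PBS through 19.7 in KO PBS, which did not differ beyond their spread, to 70.5 in KO HDM and 216 in wild-type HDM samples. Ccr3 ran from 15.7 ± 7.12 in wild-type PBS through 20.2 ± 12.6 in KO PBS and 27.6 ± 8.95 in KO HDM to 38.9 ± 2.87 in wild-type HDM samples, with overlap between each pair of neighbours in this order. The coefficient of variation within a group was 13.5% to 58.6% for Ccl11, 20.1% to 50.6% for Ccl24 and 7.4% to 62.3% for Ccr3.

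Ccl11 was next compared with the chemokine genes beside it on chromosome 11, Ccl2, Ccl7, Ccl12, Ccl8 and Ccl1, which lie in that order from 82035577 to 82179812 with Ccl11 between Ccl7 and Ccl12. Their products mainly attract monocytes and T cells, and those of Ccl7 and Ccl8 were also listed here as CCR3 ligands. Whether the mouse proteins bind CCR3 was not tested. Of the 5 neighbours 2 rose after HDM in KO and 2 in wild type, Ccl8 and Ccl12 in each case, and none fell. The median HDM effect of the 5 was 1.39 in KO and 1.36 in wild type, against 0.02 and 0.01 over all 18193 genes. Of those genes 4.16% were called higher and 3.73% lower in KO, and 3.95% higher and 3.53% lower in wild type.

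Ccl8 had signals of 5602, 5653 and 5298 in KO HDM samples, against 344, 280 and 111 in KO PBS samples. In wild-type HDM samples it had 3970, 4719 and 5260, against 405, 122 and 364 in wild-type PBS samples. It rose by 4.60 ± 0.43 in KO (adjusted p = 8.72e-05) and by 4.10 ± 0.43 in wild type (adjusted p = 0.000163), and the difference of 0.50 ± 0.60 was not called (adjusted p = 0.97). HDM-treated samples of both genotypes were high and all PBS samples were low, unlike the pattern of Ccl11.

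Ccl12, the nearest distal neighbour of Ccl11, had 139, 107 and 140 in KO HDM samples, against 9.97, 3.02 and 19.5 in KO PBS samples. Wild-type HDM samples had 90.9, 84.7 and 120, against 9.87, 2.67 and 2.92 in wild-type PBS samples. Its HDM effect was 3.03 ± 0.35 in KO and 3.15 ± 0.35 in wild type (difference -0.13 ± 0.50; adjusted p = 0.997). The remaining neighbours were not called. Their HDM effects were 1.39 in KO and 1.36 in wild type for Ccl2, 0.86 and 0.90 for Ccl7, and 1.02 and 0.81 for Ccl1, with adjusted p from 0.12 to 0.28. None of the 5 neighbours had a called difference between genotypes in the HDM effect, or in KO against wild type after HDM or after PBS. Il13 is on the same chromosome, 28.4 Mb from Ccl11.

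**Figure D3:**
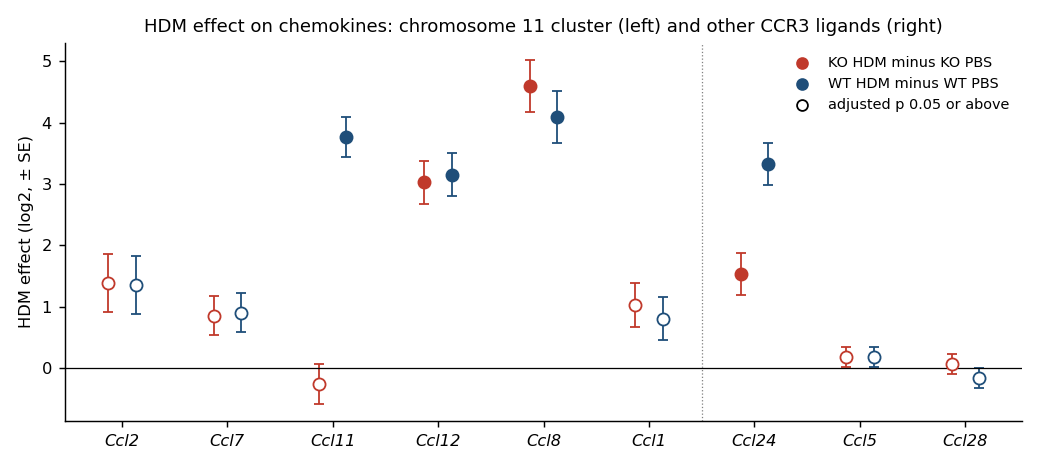
HDM effect (log2, ± SE) on the chemokines of the chromosome 11 cluster in genomic order (left of the dotted line) and on other ligands of CCR3 (right), in KO and in wild type. Filled points had an adjusted p under 0.05. The 2 genotypes lie close together for Ccl8 (4.60 in KO and 4.10 in wild type) and Ccl12 (3.03 and 3.15) and apart for Ccl11 (-0.26 and 3.77) and Ccl24 (1.53 and 3.33).

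Of the 4 genes listed as other CCR3 ligands, Ccl5, Ccl7, Ccl8 and Ccl28, Ccl8 alone was called after HDM, in each genotype. The list does not show that each mouse protein binds CCR3. Ccl5 (RANTES), which T cells make, had an HDM effect of 0.18 in KO and 0.18 in wild type, and Ccl28, a chemokine of mucosal epithelium, 0.07 and -0.16. None of the 4 had a called difference of HDM effects.

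Of 14 measured genes for cytokines, receptors and signal proteins upstream of the eotaxins, 2 rose after HDM in KO and 3 in wild type, and none had a called difference of HDM effects. Il33, an epithelial alarmin, rose in both, with mean signals of 304 in KO HDM, 199 in KO PBS, 644 in wild-type HDM and 243 in wild-type PBS samples. It was the single gene of the list that was lower in KO than in wild type after HDM (-1.07; adjusted p = 0.0049), where 0.423% of all genes were called lower and 0.148% higher. Jak3, a kinase of cytokine receptors, rose in KO (0.94; adjusted p = 0.00405).

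Il13ra2, the decoy receptor of IL-13, rose in wild type (1.28; adjusted p = 0.016), with 22.8, 28.9 and 19.96 in KO HDM, 18.2, 8.67 and 15.4 in KO PBS, 46.0, 42.7 and 62.4 in wild-type HDM and 20.1, 19.6 and 10.6 in wild-type PBS samples. Its effect in KO was 0.57 (adjusted p = 0.28). Socs1, an inhibitor of cytokine signalling, rose in wild type as well (1.57; adjusted p = 0.016). Il4 was not called, with 46.5 to 48.8 in KO HDM, 19.98 to 39.1 in KO PBS, 53.7 to 80.7 in wild-type HDM and 31.9 to 49.6 in wild-type PBS samples. Neither were Il5 (17.3 to 35.0, 1.0 to 19.4, 10.8 to 25.0 and 6.53 to 7.9 in the same order), Il13, Il4ra, Il13ra1 and Stat6. Stat6 had mean signals of 397, 391, 377 and 359 in that order.

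The cells that carry the receptor were followed by marker lists. Of 16 eosinophil gene names listed, 9 were matched to a measured gene and 4 of these passed the filter on low signal. After HDM 5 rose in KO and 3 in wild type and none fell, with a median effect of 1.03 in KO and 0.77 in wild type. None of the 9 had a called difference of HDM effects, nor a called difference between genotypes after HDM or PBS. Rnase2a, of the eosinophil-associated ribonuclease family, had 1771, 1529 and 1309 in KO HDM samples, against 24.1, 22.0 and 3.61 in KO PBS samples. It had 1860, 1838 and 2111 in wild-type HDM samples, against 29.8, 1.62 and 50.4 in wild-type PBS samples.

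Prg2, the major basic protein of eosinophil granules, rose by 1.03 in KO and 1.03 in wild type (adjusted p = 0.019 and 0.020), with 33.8 to 47.7 in KO HDM, 10.8 to 18.0 in KO PBS, 40.1 to 42.7 in wild-type HDM and 14.3 to 18.2 in wild-type PBS samples. Alox15, a lipoxygenase of eosinophils and macrophages, rose by 2.27 in KO and by 3.69 in wild type (difference -1.42; adjusted p = 0.80). Il5ra, the IL-5 receptor subunit, rose in KO (1.76; adjusted p = 0.031) and had an effect of -0.23 in wild type (adjusted p = 0.87). Its mean signals were low, at 26.4 in KO HDM, 2.61 in KO PBS, 12.5 in wild-type HDM and 20.3 in wild-type PBS samples, and the difference of effects was not called (1.99; adjusted p = 0.70). Epx (eosinophil peroxidase) and Siglecf, a surface lectin of eosinophils and alveolar macrophages, were singled out after their values were seen: their HDM effects were 0.50 and 0.02 in KO and 0.77 and 0.03 in wild type, none called. The summed signal of the 9 genes was 1768 to 2181 in KO HDM, 164 to 219 in KO PBS, 2442 to 2631 in wild-type HDM and 137 to 280 in wild-type PBS samples. Rnase2a made up most of the sum after HDM, so the sum mainly follows that gene. Which cells the Rnase2a signal came from was not tested.

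Mast cell and basophil markers rose after HDM in 7 of 12 in KO and in 4 of 12 in wild type, with medians of 1.49 and 0.77. None had a called difference of HDM effects. The summed signal was higher in KO HDM (1976 to 2375) than in wild-type HDM samples (1291 to 1631), and 1020 to 1127 in KO PBS and 932 to 1111 in wild-type PBS samples. Mcpt4, a mast cell chymase, was higher in KO than in wild type after HDM (2.23; adjusted p = 0.0076). Their part in the Ccr3 signal was not tested.

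The receptor's neighbours on chromosome 9 were described in the same way. Of 4 measured genes 2 rose after HDM in each genotype and none fell. Ccr1 and Ccr2, receptors of monocytes and other leukocytes, rose by 1.26 and 1.24 in KO and by 1.57 and 1.42 in wild type. Another probe set of Ccr1 and 3 others of Ccr2 were not called. Ccr1l1 and Ccrl2 were not called, and no gene of this list differed between genotypes in the HDM effect (adjusted p from 0.90 to 0.99).

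Of 7 genes for eosinophil growth and survival receptors and their ligands, 4 rose in KO and 3 in wild type. Csf2rb, the common beta chain of the receptors for IL-3, IL-5 and GM-CSF, rose by 1.16 in KO and by 1.36 in wild type. Csf2rb2, its IL-3-specific mouse relative, rose by 1.03 and 1.16, and Csf2ra, the GM-CSF receptor alpha chain, by 0.67 and 1.27. Of 13 adhesion genes that serve eosinophil exit from vessels, 2 rose and 1 fell in each genotype: the integrin beta chain Itgb2 (0.96 in KO and 1.17 in wild type), the selectin ligand Selplg (1.33 and 0.88) and Icam2, an adhesion molecule of endothelium (-0.67 and -0.67). Of 10 genes of CCR3 signal transduction, 2 rose and 1 fell in KO and 2 rose in wild type. The GTPase Rac2 rose by 1.07 and 1.17 and the kinase Pik3cg by 0.76 and 0.78, and the phospholipase Plcb3 fell by 0.60 in KO. Among 4 scavengers and processing enzymes of chemokines, the erythroid and venular receptor Ackr1 rose in KO (0.83; adjusted p = 0.024) and none was called in wild type. No gene of these 4 lists had a called difference of HDM effects.

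Markers of the cells that can make eotaxins moved in different ways. Of 8 smooth muscle markers, 0 rose and 1 fell after HDM in KO, and 4 rose and 0 fell in wild type (medians -0.42 and 0.92). The HDM effect was lower in KO for 3 of 8 (median -1.50), which were Actg2 (-2.19), Tagln (-1.42) and Myh11 (-2.19), all of the contractile apparatus. After HDM 4 of 8 were lower in KO than in wild type. The summed signal of the 8 genes was 2150 to 2320 in KO HDM, 2503 to 3162 in KO PBS, 5127 to 5931 in wild-type HDM and 2341 to 2973 in wild-type PBS samples, so that the wild-type HDM samples stood apart as they did for Ccl11. The part of this in the Ccl11 result was not tested. Of all genes, 0.0934% had a called lower HDM effect in KO and 0.0055% a higher one.

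Of 12 markers of alternatively activated macrophages, 9 rose after HDM in KO and 10 in wild type, with medians of 1.86 and 1.79, and none had a called difference of HDM effects. Chil3 (Ym1) rose by 2.53 in KO and 2.74 in wild type, the lipid receptor Trem2 by 3.43 and 3.67, and the beta-glucan receptor Clec7a by 1.846 and 1.997. Cd163 and Arg1 had the smallest p-values of the list for the difference of HDM effects, in opposite directions. Cd163 rose by 3.02 in KO and 1.91 in wild type (difference 1.12, adjusted p = 0.76). Arg1 rose by 4.27 in KO and 6.05 in wild type (difference -1.77, adjusted p = 0.80). The summed signal overlapped between the HDM groups, with 11990 to 12931 in KO and 11565 to 16270 in wild type, against 2272 to 3437 in KO PBS and 2202 to 4017 in wild-type PBS samples. Of 8 general macrophage markers 4 rose in each genotype, among them Itgax (1.42 in KO and 2.34 in wild type) and Cd68 (1.57 and 1.76). Of 8 fibroblast markers 2 rose and 1 fell in KO and 1 rose in wild type, with changes of at most 0.97 in size.

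**Figure D4:**
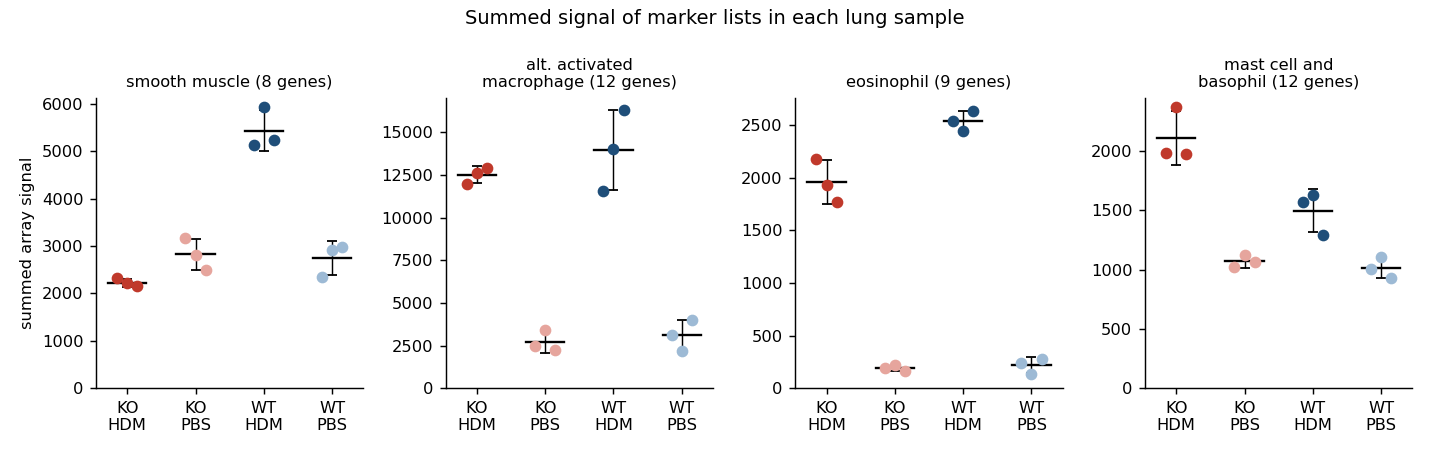
Summed array signal of 4 marker lists in each lung sample (points, 3 per group), with group mean (long bar) and SD (error bar). Smooth muscle markers are high in the wild-type HDM samples (5127 to 5931), and mast cell markers are highest in KO HDM samples (1976 to 2375). The sums of macrophage and eosinophil markers are high after HDM in both genotypes. Rnase2a alone makes up most of the eosinophil sum after HDM.

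The genes most alike to each member across the 12 samples were taken by Pearson correlation of log2 signals among 14480 genes over the filter, as a description. The 12 points share the 4 groups, so a high value mainly says that a gene has the same order of groups. Ccl11 was most like Col14a1, a fibril-associated collagen (r = 0.98), Itln1, an intelectin of mucous cells (0.98), Synpo2, an actin-bundling protein (0.97), the smooth muscle actin Acta2 (0.97), the goblet cell protein Retnlb (0.96) and Actg2 (0.96). In 43 genes r was at least 0.9. Itln1 had mean signals of 2.98 in KO HDM, 2.08 in KO PBS, 420 in wild-type HDM and 2.54 in wild-type PBS samples, and Col14a1 had 98.2, 95.7, 219 and 108 in the same order.

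Ccl24 was most like Tmem26 (0.97), the glucose transporter Slc2a3 (0.97), Arg1, the arginase of alternatively activated macrophages (0.96), the growth factor Igf1 (0.96), the phosphodiesterase Pde2a (0.95) and the mitochondrial import factor Timm10 (0.95). Of these, Arg1 had means of 289 in KO HDM, 8.44 in KO PBS, 1145 in wild-type HDM and 12.6 in wild-type PBS samples. Tmem26 had 84.2, 27.8, 145 and 19.6 in the same order. The genes of both groups were chosen for their likeness over these same samples, so their own differences between groups follow in part from the choice.

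For Ccr3, Tmem192 (0.92), Arhgef4 (0.90), Lrfn3 (0.90), Efcab1 (0.89), Prg4 (0.89) and Capzb (0.89) came first, none of them called for the HDM effect in either genotype. In 2 genes r was at least 0.9.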

How the data were processed

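The authors' deposited tables hold 1 intensity per probe set and array, on a linear scale. Which software made them is not given in the sources used here. With 2% of values trimmed at either end, all 24 arrays had the same mean of 150, which shows that the deposited values were already scaled, and no further scaling was applied. Groups and replicate numbers came from the sample titles. After removal of control probe sets, and of the 100 probe sets of the second array set that are also on the first, 45037 were tested without a filter on low signal, because the members include low-signal probe sets. Signals were converted to log2(signal + 7) on the first array set, which carries all 3 members, and log2(signal + 11) on the second (the 10th percentile of its values). limma 3.58.1 in R 4.3.3 fitted 4 group means (8 residual degrees of freedom), with eBayes and an intensity trend. Adjusted p-values are by Benjamini-Hochberg over all probe sets within a comparison, at 0.05. The fit was tested on simulated data. Ranges, correlations and exact permutation tests used Python 3.11.15 and scipy 1.17.1.

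Gene names came from the platform annotation, updated by gene ID: 20380 and 14661 probe sets had a single gene, 691 and 245 several, and 1555 and 7605 none, and 20351 and 14486 single genes matched RefSeq. In gene lists each gene stands for its probe set with the highest mean. Up to 4 called genes per list and comparison were named (smallest p), or up to 2 where none was called, besides the cytokine, ligand and neighbour genes. The 6 most alike genes were named for each member. The members and lists were chosen with earlier results of these data known. Alternatives were other added constants, a filter at the 30th percentile, quantile normalization, no trend, fits of the compared groups or of 1 array set, a replicate block, and samples left out.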

Additional observations from a re-analysis of the deposited data

Results flagged for a closer look

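The HDM effect differed between genotypes by the interaction term for 7 genes named here (limma, adjusted p under 0.05, KO minus wild type on the log2 scale). Ccl11 had a difference of -4.02. Itln1 had -5.35 and Retnlb -3.45, both found as genes most alike to Ccl11. Actg2, also among those, had -2.19, Myh11 -2.19 and Tagln -1.42. Genes most alike to Ccl11 were chosen over these same samples, so their differences follow in part from that choice. Itln1 and Retnlb also passed the filter on low signal through the wild-type HDM group. Among all genes, 0.0934% had a called lower HDM effect in KO and 0.0055% a higher one. Scgb3a2, a secretoglobin of club cells, had 1.16, with mean signals of 4331 in KO HDM, 5155 in KO PBS, 1940 in wild-type HDM and 5147 in wild-type PBS samples. With 3 samples in a group, no sample was tested as an outlier.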

How the results depend on the processing

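Of 411 values recomputed under the alternatives, 370 kept their side of the threshold (counts within 1.5 times), and none reversed a called direction. Effects that were not called could change sign among these, such as the HDM effect on Ccl11 in KO (-0.52 to 0.16 with 1 sample left out). The Ccl24 effect in KO lost its call in 4 of 12 leave-one-out fits (1.28 to 1.76) and when the 3 samples that carried muscle transcripts were left out (1.53), and the Ccl11 interaction lost it without those samples (-4.12). KO against wild type after HDM was called for Ccl24 with an added constant of 32 (-1.29) and with the first array set alone (-1.56), and Ccr3 was called in wild type with the replicate block (1.06). Same-numbered samples did not deviate together (r from -0.07 to 0.17 over 18 pairs, 1 over 0.1; 4 of 12 samples correlated best with their own number), so the numbers were not taken as pairs. Called probe sets for HDM in wild type were 2174, against 963 with only the compared groups, 799 without the 3 samples and 1229 to 2028 with 1 sample left out, the lowest without wild-type HDM replicate 3. For HDM in KO they were 2485, against 1360 to 2561. For the interaction they were 22, against 11 without the trend, 12 with the replicate block, 35 on the first array set alone, 6 without the 3 samples and 9 to 16 with 1 left out. For KO against wild type after HDM they were 156, against 67 with only the compared groups, 21 without the 3 samples and 76 to 167 with 1 left out. After PBS they were 13, against 2, 7 on the first array set alone, 4 without the 3 samples and 6 to 18. The causes were not tested, beyond the smaller number of samples or probe sets in those fits. Ccr3 gave no value under the filter on low signal, and the interaction has no fit with only the compared groups, since it uses all 4. Low signal limits the precision for Ccr3 and for PBS levels of the eotaxins.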

Other observations

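Markers of airway epithelium and goblet cells rose after HDM in 3 of 10 in KO, and in wild type 5 rose and 1 fell. After HDM 4 were lower and 1 higher in KO than in wild type: the mucus protein folding factor Agr2 (-2.80), the goblet cell transcription factor Spdef (-1.87), Muc5ac (-1.15) and Muc5b (-0.62, named after its value was seen) were lower, and Scgb3a2 was higher (1.16). Muc5ac, a gel-forming mucin, had mean signals of 114 in KO HDM, 14.6 in KO PBS, 262 in wild-type HDM and 17.0 in wild-type PBS samples.

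Of 7 T helper type 2 cell markers 2 rose in each genotype, the costimulator Icos (1.53 in KO and 1.23 in wild type) and Cd4 (1.61 and 1.67). Icos was higher in KO than in wild type after HDM (0.61; adjusted p = 0.040). Of 7 neutrophil markers and 9 skeletal muscle markers none was called by limma in any comparison. At an unadjusted p under 0.05, the HDM effect in KO had 3 of 7 neutrophil and 2 of 9 skeletal muscle genes, against 18.7% of all probe sets. These neutrophil genes differed in direction: S100a8 (-0.83) and S100a9 (-0.88) were lower and Elane (1.02), under the filter on low signal, was higher. The HDM effect in wild type had 1 of 7 and 1 of 9, against 16.4%. The difference of HDM effects had 0 of either, against 5.53%. KO against wild type after HDM had 0 of 7 and 5 of 9, against 7.83%, and after PBS 3 of 7 and 0 of 9, against 6.47%.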
